A study of Mus musculus with 17 samples.

Results

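The amyloid precursor family and the genes that process its proteins were followed in mouse retinal pigment epithelium (RPE), the pigmented cell layer that supports the photoreceptors. The group held 9 of the 22253 genes of the count table, chosen by symbol: the precursors App, Aplp1 and Aplp2, the proteases or protease subunits Adam10, Bace1, Bace2, Psen2 and Ncstn, and the precursor-binding protein gene Itm2b. The genes were chosen with their levels in these libraries in view. Their levels, ranges and fold changes are therefore descriptions, and no p-value of any single one of them is printed. Where they are called or counted at a threshold of a test, that too is a description.

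All mice carried 1 GFP reporter allele inserted into Serpine3, a serine protease inhibitor gene, and were heterozygous (Serpine3GFP/+) on a C57BL6/J background at 2 months of age. GFP+-RPE cells came from the peripheral part of the eyecup. The 2 control groups, ctrl periphery and ctrl center, came from the peripheral and central parts of the same kind of mouse. The study's methods describe the cells of both control groups as GFP-negative. The controls thus carried the same reporter allele and 1 intact copy of Serpine3, and no wild-type mouse entered the comparison. Each library was a SMART-Seq preparation of a pool of 10 to 15 cells picked by hand (the number in the sample labels, for which the study's methods give another range), with 6 GFP+ libraries, 5 of ctrl periphery and 6 of ctrl center from 7 mouse numbers, of which 5 had a library in every group. Mouse 1 carries 2 animal numbers in its label, so that its pools may hold cells of more than one animal.

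The precursor proteins span the membrane once. They are cut outside the membrane by an alpha-secretase such as ADAM10 or by the beta-secretase BACE1, and the remaining stump is cut inside the membrane by gamma-secretase, a complex of a presenilin, nicastrin, APH1 and PEN2. Amyloid-beta comes from APP alone, since APLP1 and APLP2 lack that stretch of sequence. APP and APLP2 are made in many tissues, whereas APLP1 is best known from neurons, and in the RPE amyloid-beta is a known component of drusen, the deposits that form under this cell layer with age.

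Total counts per library ranged from 9896118 to 22467079. Serpine3, the check of the labels, had 107 to 576 counts in the GFP+ libraries, 0 to 5 in ctrl periphery and 0 in every ctrl center library. Of 10 RPE markers, 9 had more than 3 counts in every library, and Best1, a chloride channel gene of the RPE, had 3 or fewer in each of the 17. The share of mitochondrial transcripts was 7.95% ± 5.70 (SD, n = 6) for GFP+, 19.7% ± 6.98 (SD, n = 5) in ctrl periphery and 29.1% ± 12.2 (SD, n = 6) in ctrl center. The number of genes with 10 or more counts was 9089 to 10231, 7966 to 10543 and 5392 to 10450 in the same order. Libraries of the same mouse share an animal, so that the spread measured here is between pools of cells as well as between mice.

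The precursors are related in sequence, and the stretch below shows how closely. In each coding sequence it runs from base 433 to 492 (Aplp1), 364 to 423 (App) and 412 to 471 (Aplp2), counted from the first base of the start codon in the GENCODE M21 transcripts. Capitals mark the bases that are equal in all 3 genes, 39 of 60.
Aplp1: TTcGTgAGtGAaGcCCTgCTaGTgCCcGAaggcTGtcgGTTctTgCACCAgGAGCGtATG
App: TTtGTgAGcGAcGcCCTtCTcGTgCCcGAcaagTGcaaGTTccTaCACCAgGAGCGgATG
Aplp2: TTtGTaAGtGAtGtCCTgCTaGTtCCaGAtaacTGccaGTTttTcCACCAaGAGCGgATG
App and Aplp2 each equalled Aplp1 at 45 of the 60 bases. Even so, the transcripts of the 3 genes shared no run of 31 bases. The longest run shared by Aplp1 was 17 bases with App and 14 with Aplp2, and App and Aplp2 shared one of 24. A read of 31 bases or more that matched one of them exactly could thus match neither of the others, and the same held for Bace1 against Bace2 (15 bases).

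Aplp1 lies on chromosome 7 from 30434982 to 30445535 on the minus strand of GRCm38, with 1 annotated coding transcript of 17 exons. It encodes the member of the family that sits mostly at the cell surface of neurons. In GFP+-RPE its level was 442, 429, 300, 334, 357 and 441 CPM (the count relative to the size of the library, scaled by TMM factors) in mice 1, 2, 3, 4, 5 and 7. In ctrl periphery it was 114, 88.6, 195, 90.9 and 142 CPM in mice 1, 2, 4, 5 and 7. In ctrl center it was 133, 50.5, 139, 29.6, 90.6 and 0.222 CPM in mice 1, 2, 4, 5, 6 and 7. The lowest GFP+ library stood above the highest control library of either kind, whereas the ranges of the control groups overlapped. The ctrl center library of mouse 7 held only 2 counts of Aplp1, and its low value rests on 1 library.

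The means were 384 ± 61.2 CPM (SD, n = 6) in GFP+, 126 ± 44.1 (SD, n = 5) in ctrl periphery and 73.8 ± 56.5 (SD, n = 6) in ctrl center. Between GFP+ and ctrl periphery the fitted log2 fold change was 1.64 (SE 0.23), a 3.12-fold higher level in GFP+. A gene was called here when edgeR's quasi-likelihood test gave a Benjamini-Hochberg adjusted p under 0.01 and the absolute log2 fold change was over 1. Aplp1 was the 1 of 9 genes called in this comparison, where 4 of 10102 genes tested (0.0396%) were called. Every GFP+ library lay above every ctrl periphery library for 1 of 9 genes, again Aplp1, and for 63 genes of all tested (0.624%). In a pool, more cells that express a gene and more RNA per cell cannot be told apart.

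The call on Aplp1 depended on the fit, while the size of the difference moved little. With the mouse as a block, the paired form of the test, the log2 fold change was 1.75 and no gene of the table was called. It was 1.62 with all 3 groups in the fit, where again 0 genes were called, and 1.67 with the run of animal numbers (mice 1 to 3 and mice 4 to 7) as a covariate, where 1 gene was called and it was not Aplp1. Leaving out 1 library at a time gave 1.53 to 1.84, and Aplp1 was called in 2 of these 11 fits. Of the 7 alternatives that kept all libraries, 4 called Aplp1, namely those with DESeq2, with median-of-ratios factors, without the filter on low counts and without mitochondrial genes. In that order they called 67, 4, 5 and 3 genes of the whole table, so that the DESeq2 call was the least selective. Without GFP+ mouse 3 and without ctrl periphery mouse 4 Aplp1 was called, and it was not called when any other library was left out.

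Against ctrl center the log2 fold change of Aplp1 was 2.34 (SE 0.70), 5.05-fold. It was not called, in a comparison where 4 of 9286 genes tested (0.0431%) were. The SE was larger than against ctrl periphery, and the ctrl center libraries ranged from 0.222 to 139 CPM. Without the ctrl center libraries of mice 5 and 7, a choice made after the values were seen, the log2 fold change was 1.88. Between ctrl periphery and ctrl center the log2 fold change was 0.71 (SE 0.77), and 0.27 without those 2 libraries. They had the lowest Aplp1 of ctrl center, so that smaller differences were bound to follow from leaving them out. They also had the fewest genes with 10 or more counts, 5392 and 6430, and the highest mitochondrial shares, 47.3% and 37.0%.

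Within single mice GFP+ was again the highest group, while the order of the control groups was not the same in every mouse. GFP+ exceeded ctrl periphery in 5 of 5 mice, by a factor of 1.71 in mouse 4 to 4.84 in mouse 2. GFP+ exceeded ctrl center in 5 of 5 mice, by a factor of 2.40 to 12.1 where ctrl center had more than 3 counts. Ctrl periphery exceeded ctrl center in 4 of 5 mice, and in mouse 1 the ratio was 0.857. The order of the group means held within each run of animal numbers. In mice 1 to 3 the means were 390, 101 and 91.7 CPM in GFP+, ctrl periphery and ctrl center, and in mice 4 to 7 they were 377, 143 and 64.9 CPM.

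**Figure D1:**
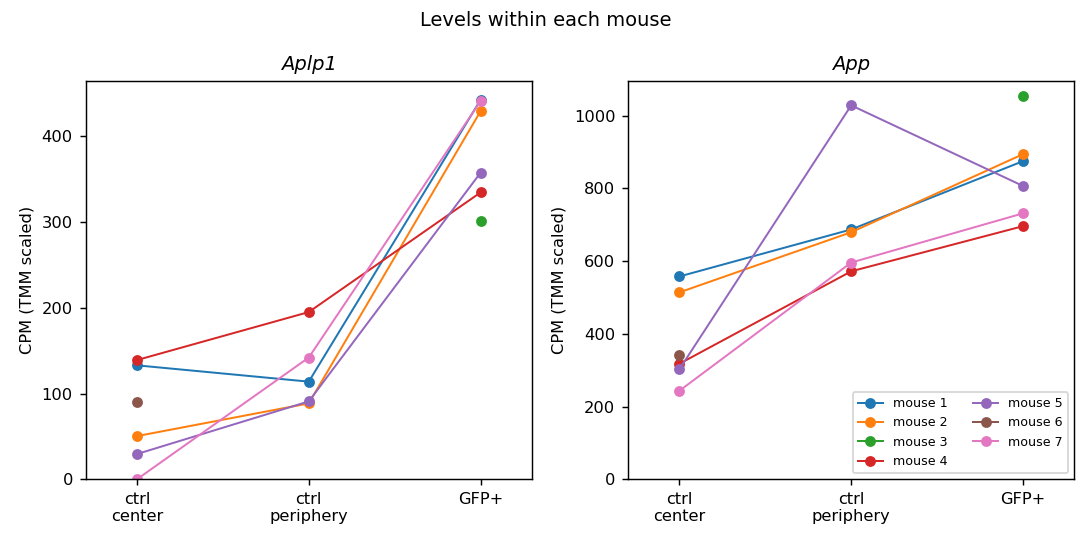
CPM (TMM scaled, linear axis from 0) of Aplp1 and App in ctrl center, ctrl periphery and GFP+ libraries, with 1 point per library and lines joining the libraries of a mouse. Aplp1 is highest in GFP+ in each of the 5 mice with all 3 libraries, whereas App of mouse 5 is highest in ctrl periphery.

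The mitochondrial share given above was lowest in GFP+, where Aplp1 was highest, and highest in ctrl center. With the 13 mitochondrial genes removed from the table, the log2 fold change of Aplp1 was 1.64 against ctrl periphery and 2.34 against ctrl center, the same to 2 decimals. Removing these genes cannot show whether pools with different shares also differ otherwise. The part of the mitochondrial share in the Aplp1 difference was not tested. Markers of other cell types were read in the same libraries. The summed level of neuron markers was 0.0949 to 18.1 CPM in GFP+, 3.06 to 31.6 in ctrl periphery and 0.998 to 122 in ctrl center. This sum came mostly from Syt1, with medians of 3.18, 19.6 and 38.2 CPM in the same order, beside 3.23, 19.9 and 39.3 for the sum. Of the 12 neuron markers, 11 had 3 or fewer counts in every GFP+ library, and Snap25, Stmn2, Slc17a6, Gad1 and Elavl4 were at that level in all 17. The summed photoreceptor markers reached 30.8 CPM in GFP+, 26.2 in ctrl periphery and 7.87 in ctrl center. Summed endothelial markers reached at most 26.0 CPM in any library, ciliary and iris markers 1.09, 0.794 and 20.9 CPM, and macrophage markers 111, 147 and 118 CPM in that order. The macrophage sum came mostly from Csf1r, and Cx3cr1, C1qa, C1qb, Aif1 and Tyrobp had 3 or fewer counts in all 17 libraries.

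The medians of 3 marker sums ran in the same order as Aplp1. Choroid stroma and fibroblast markers had medians of 246, 190 and 164 CPM in GFP+, ctrl periphery and ctrl center (155 to 539, 119 to 243 and 2.22 to 327), mostly from Acta2, and of the 8 markers Col1a2, Col3a1, Dcn, Lum and Pdgfra had 3 or fewer counts in every GFP+ library. Mueller glia and astrocyte markers had medians of 665, 622 and 586 CPM (581 to 753, 456 to 775 and 376 to 693), mostly from Glul, and Aqp4, Slc1a3, Gfap, Kcnj10 and Car2, of 7, were at that low level in GFP+. Schwann cell and oligodendrocyte markers had medians of 23.9, 16.8 and 12.3 CPM (16.8 to 58.0, 6.52 to 47.2 and 3.09 to 150). The medians of the markers of melanocytes other than RPE were 76.2, 66.7 and 81.4 CPM (48.9 to 87.0, 51.9 to 148 and 39.5 to 241). The ranges of all these sums overlapped between the groups, and their part in the Aplp1 difference was not tested.

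The genes next to Aplp1 had almost no counts. Kirrel2, 1999 bases to the right, had at most 1 count in a library, and Nfkbid, 6236 bases to the left, had 0 in all 17.

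App (chromosome 16, 84949685 to 85173766, minus strand, 6 coding transcripts) encodes the precursor of amyloid-beta. Its level in GFP+ was 875, 894, 1055, 696, 807 and 732 CPM in mice 1, 2, 3, 4, 5 and 7. In ctrl periphery it was 687, 680, 572, 1029 and 596 CPM in mice 1, 2, 4, 5 and 7, and in ctrl center 558, 514, 318, 303, 343 and 244 CPM in mice 1, 2, 4, 5, 6 and 7. Both peripheral groups stood wholly above ctrl center, and they overlapped each other. This pattern differs from that of Aplp1 in where the gap lies: for App it was between center and periphery, and for Aplp1 between GFP+ and both controls. That contrast describes the levels and was not tested.

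The log2 fold change of App was 1.07 (SE 0.24, 2.11-fold) for GFP+ against ctrl center, 0.84 (SE 0.28) for ctrl periphery against ctrl center, and 0.25 (SE 0.20) for GFP+ against ctrl periphery. None of the 3 was called. On CPM without TMM factors the ranges of ctrl periphery and ctrl center overlapped, at 526 to 965 and 166 to 645, while GFP+, at 812 to 1226, stayed above ctrl center. GFP+ exceeded ctrl center in 5 of 5 mice, by 1.57-fold or more, and ctrl periphery exceeded ctrl center in 5 of 5, by 1.23 to 3.39-fold. The group means of the mitochondrial share ran in the reverse order of the App means, and its part in this result was not tested.

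Among the 9 genes, every GFP+ library lay above every ctrl center library for 2, App and Aplp1, against 80 of all genes tested (0.862%). Every ctrl periphery library lay above every ctrl center library for 1, App, against 61 (0.64%), and for 0 on CPM without TMM factors. None of the 9 lay wholly below in any comparison, but the share of all genes that did was not counted, so this cannot be read as a trait of the 9. The quasi-likelihood test of edgeR called 0 of the 9 in GFP+ against ctrl center, where 4 of 9286 genes tested (0.0431%) were called. At an unadjusted p under 0.05 in that test were 3 of the 9, with 199 of all genes higher and 340 lower. DESeq2 called 0 of the 9 and 202 of 12442 genes tested. Between ctrl periphery and ctrl center the edgeR test called 0 of the 9 and 0 of the 9535 genes tested (0%). There 1 of the 9 was at an unadjusted p under 0.05, with 98 genes higher and 159 lower at that limit, and DESeq2 called 0 of the 9 and 29 of all genes.

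Aplp2 (chromosome 9, 31149557 to 31211815, minus strand) encodes the most widely expressed relative of APP. Its mean was 556 ± 63.5 CPM (SD, n = 6) in GFP+, 456 ± 83.3 (SD, n = 5) in ctrl periphery and 438 ± 160 (SD, n = 6) in ctrl center. All 3 ranges overlapped, from 481 to 651, 325 to 550 and 201 to 621 CPM. The log2 fold changes were 0.26 (SE 0.26) against ctrl center, 0.30 (SE 0.18) against ctrl periphery and -0.01 (SE 0.30) between the control groups. The spread of Aplp2 within a group, as a coefficient of variation, was 11.4% in GFP+ and 36.5% in ctrl center, and for App it was 15.4% and 33.2%.

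**Figure D2:**
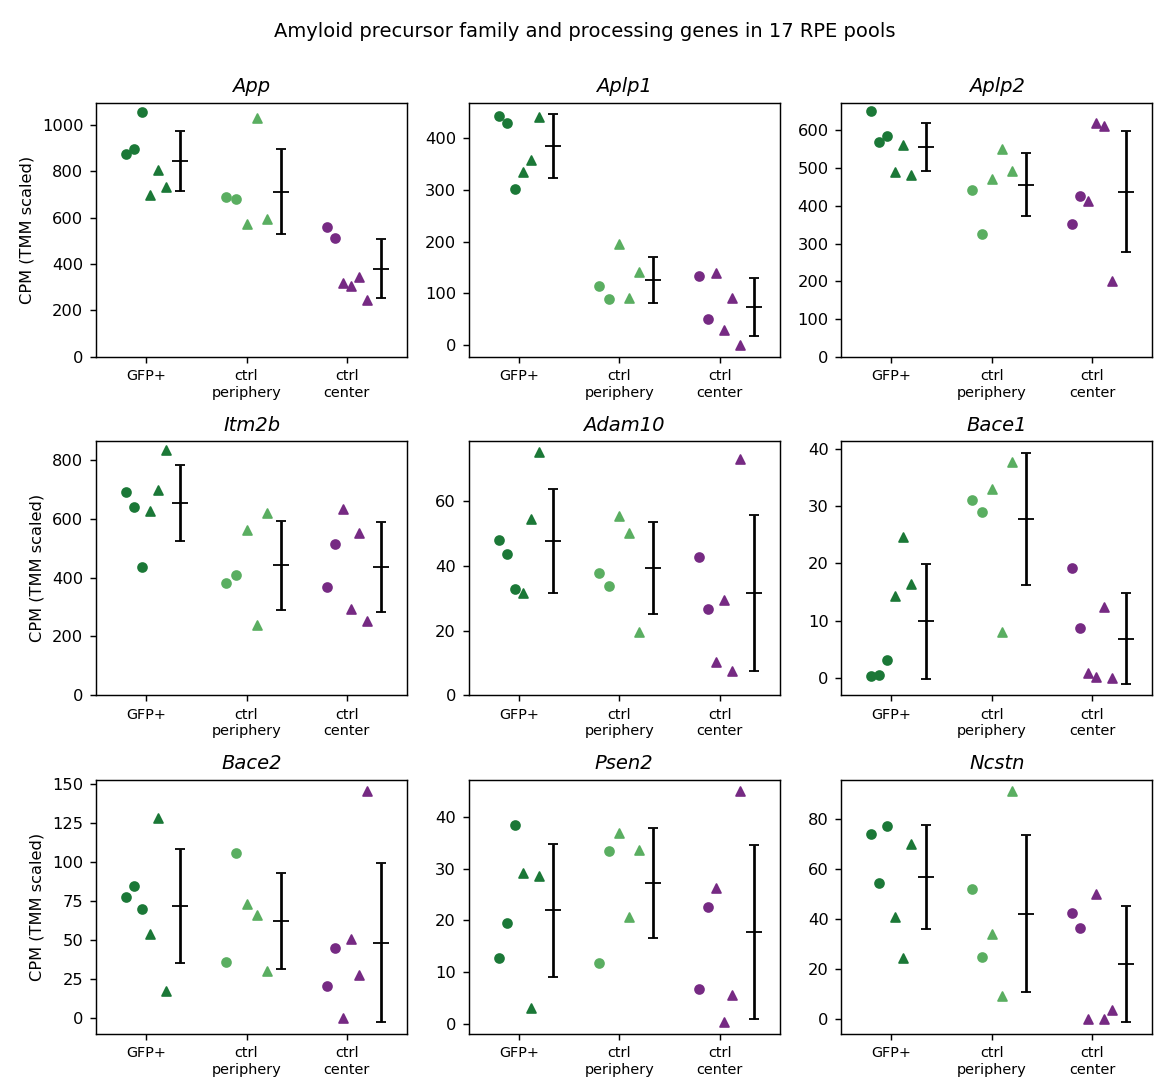
CPM (TMM scaled, linear axes) of the 9 genes in each library, with circles for mice 1 to 3 and triangles for mice 4 to 7 and black bars for the group mean ± SD. GFP+ points of Aplp1 lie between 300 and 442 CPM, above all control points, and the other 8 genes show overlap of GFP+ with at least 1 control group.

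Levels of different genes can be compared only per length, and here CPM was divided by the length of the union of annotated exons. The order of the genes can change with the length chosen. Over the 17 libraries Itm2b had the highest level of the 9, 188 ± 62.9 CPM per kilobase (SD, n = 17), followed by Aplp2 at 82.5, Aplp1 at 65.8 and App at 49.4. App, the lowest of these 4, stood above 92.2% of the 10502 genes ranked. The secretase genes were lower, with Ncstn at 10.1, Adam10 at 8.05, Bace2 at 7.71, Psen2 at 5.08 and Bace1 at 2.22 CPM per kilobase. Neighbours in this order did not differ beyond their SDs, except Itm2b from Aplp2 and App from Ncstn.

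The place of Aplp1 in this order differed between the groups. It had rank 2 among the 9 genes in GFP+, at 127 ± 20.3 CPM per kilobase (SD, n = 6), and rank 4 in ctrl periphery and ctrl center, at 41.8 ± 14.6 (SD, n = 5) and 24.5 ± 18.7 (SD, n = 6). As a share of the 3 precursor genes per kilobase, a measure within a library on which scaling has no effect, Aplp1 made up 44.3% ± 5.17 (SD, n = 6) in GFP+, 24.0% ± 7.13 (SD, n = 5) in ctrl periphery and 16.9% ± 12.8 (SD, n = 6) in ctrl center. The lowest GFP+ library, that of mouse 3, was at 35.5%, and the highest control libraries, both of mouse 4, were at 34.2% and 32.7%. With the longest coding transcript as the length, a choice made after the values were seen, the shares were 39.0%, 20.3% and 14.3%, and the ranks of Aplp1 were again 2, 4 and 4. Both lengths were far longer for App than for Aplp1, 12996 against 3017 bases for the exons and 8167 against 2343 for the transcript. The coding sequences were closer, 2310 bases in App, 2253 in Aplp2 and 1962 in Aplp1, and levels per coding length were not computed. Mean CPM in GFP+, not divided by length, was 843 for App, 556 for Aplp2 and 384 for Aplp1. The rank of Aplp1 above App and Aplp2 in GFP+ and the size of its share thus rest on the lengths chosen.

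Among the proteases, Adam10 (chromosome 9, 70678997 to 70780229, plus strand) encodes the main alpha-secretase. Its level was 31.6 to 75.2 CPM in GFP+, 19.7 to 55.5 in ctrl periphery and 7.50 to 73.2 in ctrl center. The ranges overlapped, and the log2 fold changes were 0.48 (SE 0.62) against ctrl center and 0.29 (SE 0.38) against ctrl periphery. GFP+ exceeded ctrl center in 5 of 5 mice, although by only 1.03-fold in the mouse with the smallest ratio.

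Bace1 (chromosome 9, 45838580 to 45864399, plus strand) encodes the beta-secretase that starts amyloid-beta release. It was at 0.272, 0.475, 3.11, 14.3, 24.6 and 16.3 CPM in GFP+ of mice 1, 2, 3, 4, 5 and 7. In ctrl periphery it was at 31.1, 28.9, 33.1, 8.02 and 37.8 CPM in mice 1, 2, 4, 5 and 7, and in ctrl center at 19.1, 8.69, 0.798, 0.185, 12.3 and 0 CPM in mice 1, 2, 4, 5, 6 and 7. In ctrl periphery 4 of 5 libraries stood above every library of the other groups, and that of mouse 5 did not. The log2 fold changes were -1.47 (SE 0.96) for GFP+ against ctrl periphery, 1.94 (SE 1.36) for ctrl periphery against ctrl center and 0.46 (SE 1.49) for GFP+ against ctrl center. None was called, and 2 ctrl center libraries had 3 or fewer counts. Exons of Bace1 share 975 bases with Rnf214 on the opposite strand, and the strand setting of the counting is not given in the sources used here. Rnf214 was at 21.7 ± 8.10 CPM (SD, n = 6) in GFP+, 22.8 ± 7.04 (SD, n = 5) in ctrl periphery and 23.6 ± 21.5 (SD, n = 6) in ctrl center.

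Bace2 (chromosome 16, 97356742 to 97442936, plus strand) encodes the close relative of BACE1 that cuts within the amyloid-beta sequence and, in pigment cells, the melanosomal protein PMEL. It was at 17.4 to 128 CPM in GFP+, 30.3 to 106 in ctrl periphery and 0 to 145 in ctrl center. Ctrl center held both extremes, with 0 counts in mouse 4 and 1312 in mouse 7. A count of 0 allows up to 3 counts in that library. The log2 fold changes, 0.47 (SE 0.89), 0.23 (SE 0.44) and 0.28 (SE 0.96), were all below their errors. Per kilobase, the mean of Bace2 exceeded that of Bace1 in each group. The means were 9.14 ± 4.64 against 1.55 ± 1.58 in GFP+ (SD, n = 6) and 7.89 ± 3.89 against 4.38 ± 1.81 in ctrl periphery (SD, n = 5). In ctrl center they were 6.12 ± 6.46 against 1.08 ± 1.24 (SD, n = 6). In both control groups the SDs overlapped. Single libraries did not all follow this order, as in ctrl periphery of mouse 7, with 30.3 CPM of Bace2 and 37.8 of Bace1.

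Psen2 (chromosome 1, 180227004 to 180263438, minus strand) encodes presenilin 2, a catalytic subunit of gamma-secretase, and Ncstn (chromosome 1, 172066013 to 172082795, minus strand) encodes nicastrin, the subunit that receives the substrate. Psen2 was at 3.03 to 38.5 CPM in GFP+, 11.8 to 36.9 in ctrl periphery and 0.370 to 44.9 in ctrl center. Ncstn was at 24.5 to 77.0, 9.21 to 90.8 and 0 to 49.9 CPM. All of these ranges overlapped. The log2 fold changes of GFP+ against ctrl center and ctrl periphery were 0.27 (SE 0.98) and -0.27 (SE 0.62) for Psen2 and 1.20 (SE 1.11) and 0.47 (SE 0.49) for Ncstn. For Ncstn, 2 of 6 ctrl center libraries had 3 or fewer counts, and mouse 7 had 32. Its exons share 195 bases with Copa on the opposite strand.

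Itm2b (chromosome 14, 73362226 to 73385289, minus strand), also known as BRI2, encodes a membrane protein that binds APP and limits its cleavage. In GFP+ it was at 690, 640, 436, 625, 697 and 833 CPM in mice 1, 2, 3, 4, 5 and 7. In ctrl periphery it was at 381, 409, 561, 240 and 620 CPM in mice 1, 2, 4, 5 and 7, and in ctrl center at 369, 513, 633, 292, 552 and 253 CPM in mice 1, 2, 4, 5, 6 and 7. In GFP+, 5 of 6 libraries stood above all ctrl periphery libraries, and that of mouse 3 lay within their range. The log2 fold changes were 0.60 (SE 0.23) against ctrl periphery, 0.54 (SE 0.24) against ctrl center and -0.03 (SE 0.30) between the control groups, and none was called. GFP+ exceeded ctrl periphery in 5 of 5 mice, by 1.11 to 2.91-fold, and ctrl center in 4 of 5.

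**Figure D3:**
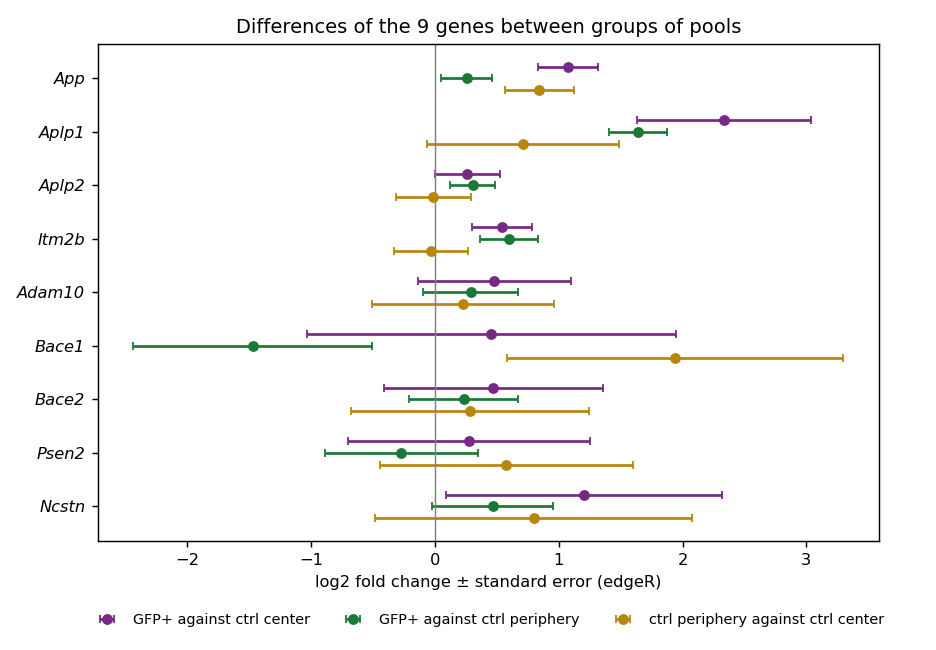
Log2 fold change (edgeR) ± standard error of the 9 genes for GFP+ against ctrl center, GFP+ against ctrl periphery and ctrl periphery against ctrl center. The standard error was derived from the F statistic of edgeR's quasi-likelihood test. Aplp1 has the highest value against both controls, 2.34 and 1.64, and the widest error is that of Bace1 against ctrl center, 1.49.

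The other genes of the pathway were read from 6 lists of 59 genes. The quasi-likelihood test of edgeR called 0 of them in each comparison, as did DESeq2. Of all genes tested, edgeR called 4 in GFP+ against ctrl center, 4 against ctrl periphery and 0 between the control groups. In the same order DESeq2 called 202, 67 and 29. Against ctrl center, 46 were tested, 30 were higher and 16 lower in GFP+, and the median log2 fold change was 0.32, beside 0.00 over all genes tested. Before adjustment, 5 higher and 1 lower genes had a p under 0.05, as had 199 higher and 340 lower of all genes tested. Against ctrl periphery, 51 were tested, 31 higher and 20 lower, with a median of 0.23 beside 0.01, and 4 were higher and 0 lower at that limit, where 278 of all genes tested were higher and 286 lower. Between the control groups, 48 were tested, 26 higher and 22 lower in the periphery, with a median of 0.10 beside 0.01 and 0 at that limit.

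The other gamma-secretase subunits were divided, with 2 higher and 3 lower of 5 in GFP+ against each control group. Psenen, which encodes PEN2, had the highest level per length of this list, at 142 ± 40.1 CPM (SD, n = 6) in GFP+, 119 ± 33.1 (SD, n = 5) in ctrl periphery and 152 ± 51.4 (SD, n = 6) in ctrl center. Aph1a, the APH1 subunit, followed at 29.3 ± 4.25, 37.2 ± 11.1 and 29.5 ± 18.3 CPM.

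Of the alpha-secretase genes and regulators, 5 of 7 tested were higher against ctrl center (median 0.50) and 7 of 10 against ctrl periphery (median 0.35). Timp3, a metalloproteinase inhibitor of the RPE basement membrane that also blocks ADAM proteases, had a log2 fold change of 0.50 (SE 0.21) against ctrl center, with an adjusted p of 0.712 in edgeR's quasi-likelihood test. Adam9, another alpha-secretase candidate, had one of 1.21 (SE 0.51) against ctrl periphery, with an adjusted p of 0.801. Tspan10, a tetraspanin that guides ADAM10 and is known from pigment cells, was at 298 ± 60.6, 259 ± 108 and 278 ± 97.1 CPM in the 3 groups. Of the ITM2 relatives, Itm2c was at 75.9 ± 31.8 CPM in GFP+ and 42.1 ± 21.4 CPM in ctrl center, and Itm2a did not pass the filter on low counts.

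Sorting and endocytosis genes were higher in GFP+ for 12 of 12 tested against ctrl center (median 0.40), with 0 at an unadjusted p under 0.05, and for 6 of 13 against ctrl periphery (median -0.08). Vps35, the core of the retromer complex that returns the precursors from endosomes, had a log2 fold change of 0.97 (SE 0.37) against ctrl periphery, with an adjusted p of 0.723 in edgeR's quasi-likelihood test. Its partners Vps26a and Vps29 had the highest levels of the list per length and log2 fold changes of 0.98 (SE 0.85) and 0.25 (SE 0.32) in the same comparison. Adaptor and transport genes stood near zero, with medians of -0.08 and 0.02. Rtn3, a reticulon that binds BACE1, was at 591 ± 198, 570 ± 88.6 and 589 ± 96.3 CPM, and Gulp1, an engulfment adaptor, at 197 ± 69.7, 162 ± 148 and 266 ± 145 CPM.

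Breakdown and clearance genes had the largest list medians against ctrl periphery, 0.57, with 9 of 10 higher. Against ctrl center, 6 of 9 were higher and the median was 0.71. Ctsd, the lysosomal protease cathepsin D, had log2 fold changes of 1.13 (SE 0.35, adjusted p 0.263) against ctrl center and 1.00 (SE 0.35, adjusted p 0.685) against ctrl periphery in edgeR's quasi-likelihood test. Ctsb, cathepsin B, had 0.65 (SE 0.29, adjusted p 0.775) and 0.58 (SE 0.26, adjusted p 0.884). Against ctrl center, the amyloid-beta binding proteins A2m and Clu had 2.13 (SE 0.83, adjusted p 0.575) and 0.77 (SE 0.29, adjusted p 0.534), and the cholesterol exporter Abca1 had -1.70 (SE 0.52, adjusted p 0.269). Cst3, cystatin C, was the gene with the highest level per length of all lists, at 15396 ± 1739 CPM (SD, n = 6) in GFP+, 15633 ± 2224 (SD, n = 5) in ctrl periphery and 17099 ± 5462 (SD, n = 6) in ctrl center. None of these genes passed the adjusted threshold.

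**Figure D4:**
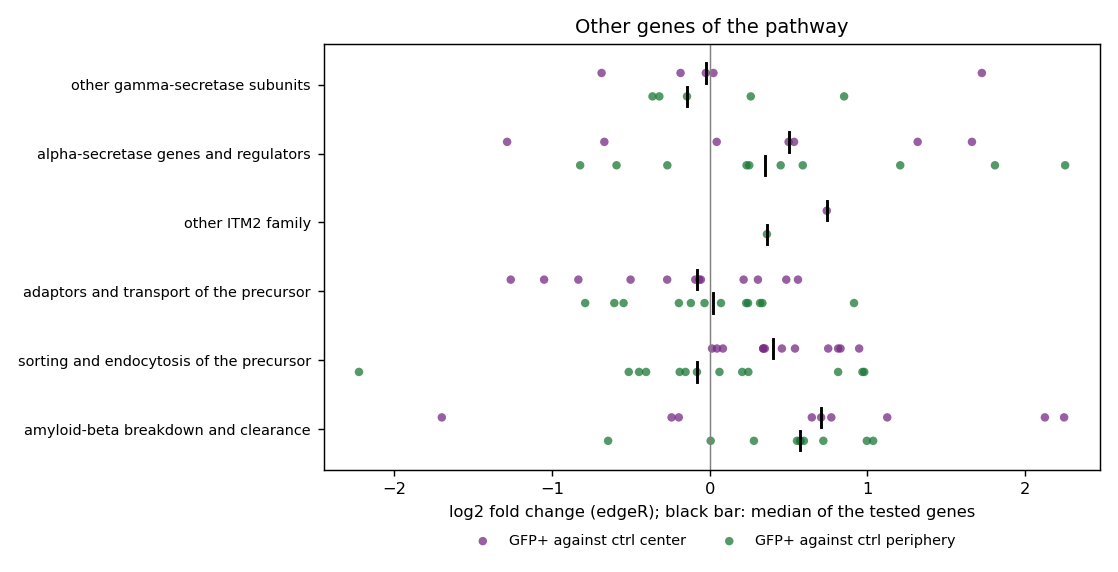
Log2 fold changes (edgeR) of the tested genes of 6 pathway lists for GFP+ against ctrl center and against ctrl periphery, 1 point per gene, with black bars for the list medians. Sorting and endocytosis genes lie above 0 for 12 of 12 against ctrl center, beside 4648 of 9286 over all genes tested. They lie on both sides of 0 against ctrl periphery.

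The genes whose level across the 17 libraries was most like that of Aplp1, by Spearman correlation of CPM over 10639 genes, were Bcan (0.926), Eif1a (0.909), Zfp790 (0.902), S100a16 (0.887) and Htr3a (0.870). Libraries of a mouse share an animal and groups differ in level, so these values are descriptions. Bcan, the proteoglycan brevican, was at 74.3 to 250 CPM in GFP+, 0.874 to 22.7 in ctrl periphery and 0 to 17.5 in ctrl center. Htr3a, a serotonin-gated channel subunit, was at 254 to 744, 48.4 to 145 and 0 to 40.0 CPM, and like Aplp1 it was among the 4 genes called against ctrl periphery. S100a16, a calcium-binding protein gene, was at 179 to 275, 4.29 to 110 and 28.7 to 169 CPM, with GFP+ also above both controls. Among the other 8 genes of the group, Itm2b was the most like Aplp1 (0.821, rank 15), followed by App (0.689, rank 133), and Bace2 and Psen2 were near zero (0.02 and 0.01). With Pearson correlation of log2(CPM + 1), none of these 5 genes remained among the top 5, which were Npc2, Dnajc3, Stxbp3, Psmd2 and Snx17.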

How the data were processed

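The data were read counts per gene in 17 pools of RPE cells. The authors deposited unnormalized counts, 1 whole number for each gene symbol and library. The submitters' processing notes name fastp, Salmon and GRCm38.p6. Salmon gives estimated counts, so the whole numbers may be rounded; annotation, strand and any length scaling are not given in the sources used here. Columns were matched to samples by their names; unused sample columns numbered 0.

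CPM used TMM factors over 17 libraries. Each comparison was fitted to its own groups in edgeR 4.0.16 (R 4.3.3), with the default filter on low counts, TMM and the quasi-likelihood test, adjusted by Benjamini-Hochberg over all genes tested. The SE of a log2 fold change was derived as its absolute value divided by the square root of the F statistic of that test. DESeq2 (version 1.42.0), named in the methods of the study, was an alternative. Other alternatives were median-of-ratios factors, no filter, removal of mitochondrial genes, all groups in 1 fit, the run of animal numbers, each library left out, and the mouse as a block. The labels give the mouse of each library; over 15 pairs of libraries of a mouse, deviations from the group means correlated between -0.0195 and 0.0935. The fit was also run on simulated counts whose spread was set below that estimated from these libraries. That run cannot show how the fit performs at the spread of these libraries. Lengths and positions came from GENCODE M21 (GRCm38), which held 21853 of 22253 symbols (98.2%). A count of 0 was taken to allow 3 counts, and no molecular identifiers are described, so that such limits cover counting error only. Python 3.11.15 was used for summaries and figures.

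The 9 genes, the lists and the markers were chosen with earlier results of these data known. Named genes were the 9, Serpine3, the 2 genes of each list with the highest CPM per kilobase, list genes at an unadjusted p under 0.05, the 5 genes most like Aplp1, and neighbouring or overlapping genes.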

Additional observations from a re-analysis of the deposited data

Results flagged for a closer look

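Among 33 groups of the 9 genes and related measures, 2 held a library far from the others, where chance gives about 1 in 20. App in ctrl periphery of mouse 5 was at 1029 CPM, and the others of that group lay from 572 to 687. Bace2 in ctrl center of mouse 7 was at 145 CPM, and the others lay from 0 to 50.8. Bace1 moved apart between the runs of animal numbers in GFP+ against ctrl center: the log2 ratio of the mean CPM was -3.43 in mice 1 to 3, where every GFP+ library was below every ctrl center library, and 2.47 in mice 4 to 7, where each was above. This difference between the runs was not tested.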

How the results depend on the processing

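The number of genes called over the whole table moved with the method. For GFP+ against ctrl center it was 4, and it was 202 with DESeq2 (82 higher and 120 lower), 1 with the animal-number run in the model, 8 at an adjusted p under 0.05 with no fold limit, and 1 to 3 when a library was left out. For GFP+ against ctrl periphery it was 4, and it was 67 with DESeq2 (37 higher and 30 lower), 0 with all 3 groups in the fit, 1 with the run, and 0 to 5 when a library was left out. Between the control groups it was 0, with 29 in DESeq2 and 0 to 0 when a library was left out. With the mouse as a block, the paired fit, 56 genes were called against ctrl center (1 higher and 55 lower in GFP+, with a median of 0.57 over all genes, beside 0.00 without the block), and 0 against ctrl periphery. The block changed the call on Aplp1 and on no other of the 9 genes. Genes of the pathway lists called were 0 to 0 throughout.

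The log2 fold changes of the 9 genes moved by less than 1 SD of the log2 levels between libraries in 511 of 513 alternatives. The exceptions were Bace1 under the block, at 3.37 for GFP+ against ctrl center and 4.24 for ctrl periphery against ctrl center, and the cause was not tested. In 18 alternatives the sign changed, each for a gene not called. Aplp1 ranged from 1.88 to 3.12 against ctrl center, 1.53 to 1.84 against ctrl periphery and 0.27 to 1.35 between the control groups. At these depths 3 counts stood for 0.116 to 0.554 CPM, and lower levels could not be read in a single library.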
